A study of Arabidopsis thaliana with 7 samples.

Results

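The genes described here are AT5G38910 and 9 related germin-like genes that lie near it on chromosome 5 of Arabidopsis thaliana, 10 of the 32833 genes counted. The set was selected on the measured fall of AT5G38910 between Col-0 and cepd roots in these same libraries. The change of AT5G38910 is therefore given as a description with no test. The other 9 genes, called its relatives here, were taken for their sequence and place, with earlier results of these data known. The germin-like neighbours AT5G39100 (GLP6) and AT5G39180 are not in the list. The relatives are AT5G38930, AT5G38940, AT5G38960, AT5G39110, AT5G39120, AT5G39130, AT5G39150, AT5G39160 and AT5G39190 (GER2). A count was found for 9 of the 10 members, and 4 of them passed the filter on low counts: AT5G38910, AT5G38940, AT5G39110 and AT5G39120. AT5G38910 passed that filter through its Col-0 libraries alone.

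RNA from Col-0 wild-type roots (3 libraries, replicates 1, 3 and 4) was compared with RNA from cepd roots (4 libraries, replicates 1 to 4), a single CRISPR/Cas9-edited roxy6 roxy7 roxy8 roxy9 quadruple mutant line in the Col-0 background. ROXY6 to ROXY9, also called CEPDs, are CC-type glutaredoxin-like proteins that move from shoots to N-starved roots. Seedlings of both genotypes had grown for 7 d on full nutrition medium (FN; 2 mM KNO3, 1 mM NH4NO3 and 1 mM glutamine) and then for 2 d on low N medium (LN; 0.1 mM KNO3 and 50 µM NH4NO3), in continuous light. Each library pooled the roots of 50 seedlings from 5 plates in 1 of 4 experiments and held 30758339 to 46611731 counts, so that 1 count was worth 0.0213 to 0.0318 CPM (counts scaled to a library of 1000000).

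Germins and germin-like proteins belong to the cupins, proteins with a barrel-shaped fold, and most are secreted glycoproteins of the cell wall that bind manganese. The germins of wheat and barley are oxalate oxidases and release hydrogen peroxide, and some germin-like proteins have superoxide dismutase activity. Families of such genes stand in tandem arrays in many plant genomes, and their transcripts are often particular to an organ or follow stress.

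The 10 genes formed 2 blocks (coordinates of TAIR10.1, whose nuclear sequence is that of the TAIR10 build). The first, of 15.2 kb on the plus strand, held AT5G38910 (chr5:15578749-15579733), AT5G38930 (chr5:15585028-15586029), AT5G38940 (chr5:15588623-15589791) and AT5G38960 (chr5:15592922-15593963). The second began 63.7 kb further on, spanned 36.0 kb and held the other 6 members on the minus strand, from AT5G39110 (chr5:15657697-15658632) to AT5G39190 (chr5:15692542-15693735). Each of the 10 genes had 2 exons in the representative annotation. A stretch of 75 coding bases in the last exon, aligned over the family without gaps, was chosen for having the most variable columns. Such differences let reads be assigned to one gene and not another, except between copies that are identical there. Capitals mark bases that differ from AT5G38910 in the same column.
AT5G38910: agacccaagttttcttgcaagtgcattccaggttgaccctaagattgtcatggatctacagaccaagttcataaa
AT5G38930: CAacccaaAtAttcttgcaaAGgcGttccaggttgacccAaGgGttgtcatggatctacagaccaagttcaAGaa
AT5G38940: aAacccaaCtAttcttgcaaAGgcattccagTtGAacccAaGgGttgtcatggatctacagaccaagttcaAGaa
AT5G38960: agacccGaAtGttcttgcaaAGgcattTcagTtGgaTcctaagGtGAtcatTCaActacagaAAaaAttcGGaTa
AT5G39110: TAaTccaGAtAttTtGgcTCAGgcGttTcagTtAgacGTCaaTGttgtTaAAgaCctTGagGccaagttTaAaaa
AT5G39120: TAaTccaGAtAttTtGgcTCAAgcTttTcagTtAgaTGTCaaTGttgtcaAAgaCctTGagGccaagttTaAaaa
AT5G39130: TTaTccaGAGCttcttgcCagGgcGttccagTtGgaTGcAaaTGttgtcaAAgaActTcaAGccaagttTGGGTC
AT5G39160: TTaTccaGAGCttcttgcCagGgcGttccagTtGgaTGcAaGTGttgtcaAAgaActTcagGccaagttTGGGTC
AT5G39190: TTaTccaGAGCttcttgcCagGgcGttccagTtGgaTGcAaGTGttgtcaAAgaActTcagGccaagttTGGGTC
Over the 12 germin-like genes of the region, AT5G39100 (GLP6) and AT5G39180 included, 48 of these 75 columns varied. AT5G38930 differed from AT5G38910 in 12 of them and AT5G38940 in 13, against 29 or 30 in the 5 second-block genes printed. AT5G39160 and AT5G39190 had the same bases throughout, and so had AT5G39150 and AT5G39180, which are not printed.

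Over whole coding sequences, AT5G38910 was closest to AT5G38930, with 82.8% of aligned bases identical, and shared no exonic run longer than 35 bases with any other germin-like gene of the region. All of its 50-base exonic stretches were found nowhere else in the genome, so a read of that length within its exons matches no other place exactly. AT5G38930 and AT5G38940 were 95.7% identical. The second block held closer copies. AT5G39160 and AT5G39190 were 99.9% identical with a shared exonic run of 515 bases, and AT5G39150 was 99.8% identical to AT5G39180, a neighbour outside the member list. Of the 50-base exonic stretches, 79.7% were found nowhere else for AT5G39110, 65.5% for AT5G39130 and 52.5% for AT5G39120. That share was only 20.0% for AT5G39160, 14.0% for AT5G39150 and 11.9% for AT5G39190. The read length and the treatment of reads with several matches are not given in the sources used here, so counts of these copies can be split between copies or lost.

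**Figure D1:**
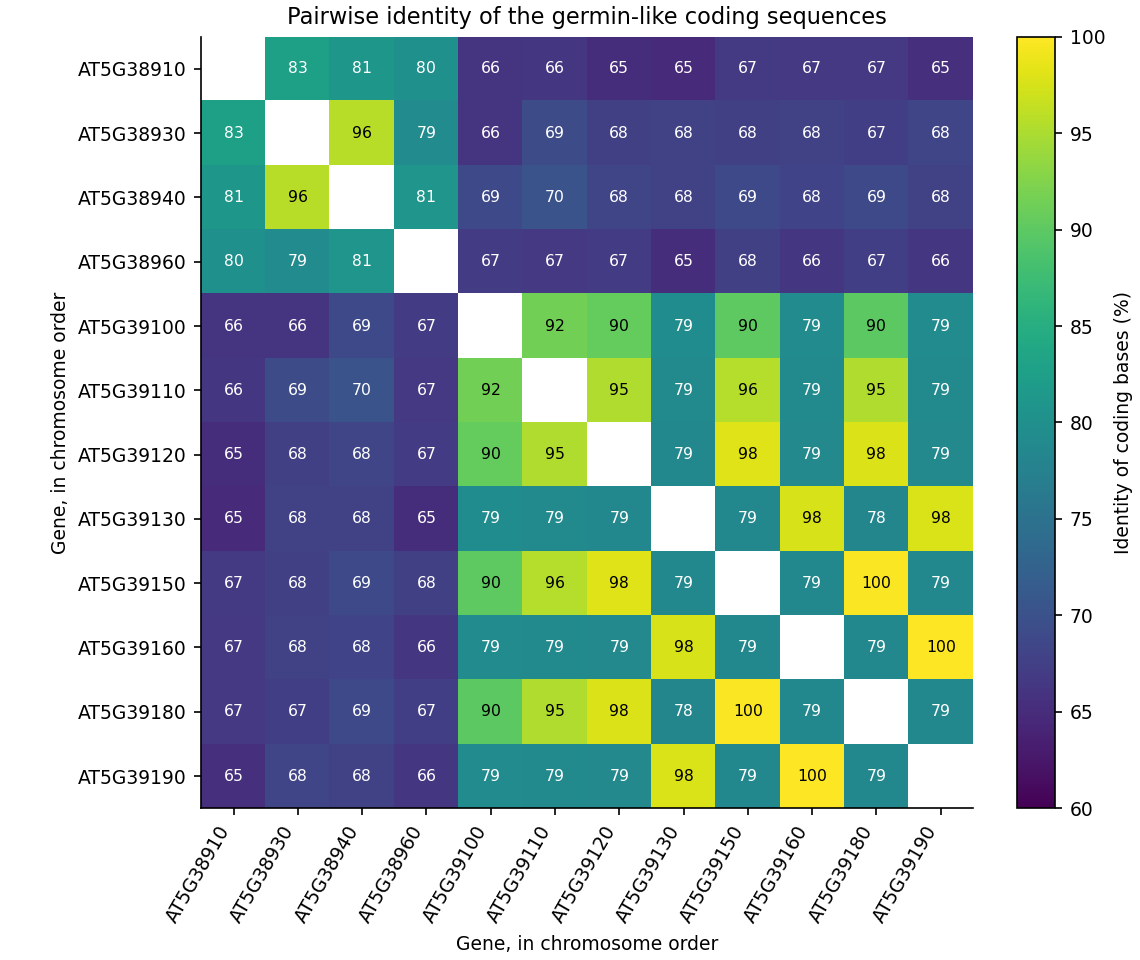
Pairwise identity of the coding sequences of the 12 germin-like genes of the region, in chromosome order on both axes, with the colour and the rounded number giving the percent of aligned bases that are identical. AT5G38910 reaches at most 82.8%, with AT5G38930, while AT5G39160 and AT5G39190 reach 99.9%.

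AT5G38910 was an abundant member in Col-0 roots and was almost missing in cepd. Its counts were 215, 880 and 1164 in Col-0 replicates 1, 3 and 4. In cepd replicates 1 to 4 they were 14, 7, 1 and 6. The groups lay far apart, and the highest cepd library was still well under the lowest Col-0 library. On the CPM scale, Col-0 had 5.73, 23.9 and 30.7, a mean of 20.1 ± 12.9 (SD, n = 3). The cepd libraries had 0.375, 0.223, 0.0213 and 0.157, a mean of 0.194 ± 0.147 CPM (SD, n = 4). The ratio of the means was 103.5, while the lowest Col-0 library exceeded the highest cepd library 15.3-fold. The fitted log2 fold change of cepd against Col-0 was -6.75 (standard error, SE, 0.77), and it ran from -7.34 to -6.30 when single libraries were left out. The level was uneven within genotypes too: it ranged 5.36-fold within Col-0, where replicate 1 was low, and 17.6-fold within cepd, where replicate 3 held a single count. In RNA of whole roots, fewer cells of a type and less RNA per cell cannot be told apart.

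AT5G38940, the other abundant gene of the first block, had a mean no lower in cepd than in Col-0. It had 16.9, 25.7 and 30.3 CPM in Col-0 and 15.8, 26.0, 35.9 and 42.0 CPM in cepd. The groups overlapped, and replicate 1 was the lowest library of each. The means were 24.3 ± 6.81 CPM (SD, n = 3) and 29.9 ± 11.5 CPM (SD, n = 4), a log2 fold change of 0.30 (SE 0.33) that did not pass edgeR's quasi-likelihood test with Benjamini-Hochberg adjustment over 20600 genes (adjusted p = 0.564). The remaining first-block genes were nearly silent. AT5G38930 had 2 counts over all Col-0 libraries and 1 over all cepd libraries. AT5G38960 had 0 counts in 7 libraries with 266131226 counts in all, which allows a level of up to 0.0113 CPM (3 counts, counting error only).

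Because a longer transcript yields more counts, the genes' levels were compared per kilobase of exon. In Col-0, AT5G38910 and AT5G38940 stood at 22.9 ± 14.7 and 22.4 ± 6.28 CPM per kb (SD, n = 3), which is within the spread of either gene. AT5G39120 came next, at 1.08 ± 0.672 CPM per kb, followed by AT5G39110 at 0.565 ± 0.354 and AT5G39130 at 0.444 ± 0.283 CPM per kb, 3 neighbours in the order whose spreads overlapped. Of their 50-base exonic stretches 52.5%, 79.7% and 65.5% were found nowhere else, so these levels would be too low if shared reads were lost. In cepd, AT5G38940 stood at 27.6 ± 10.6 CPM per kb and AT5G38910 at 0.221 ± 0.167 CPM per kb (SD, n = 4).

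The make-up of the members' transcripts followed from these levels and has the same limit for the second block. AT5G38910 gave 28.2%, 50.4% and 52.6% of the members' summed CPM per kb in the Col-0 libraries. In cepd it gave 2.61%, 1.01%, 0.0717% and 0.453%. AT5G38940 took 88.9% to 98.1% of the sum in cepd, against 42.1% to 67.6% in Col-0. The sum over the 10 members was 47.8 ± 22.3 CPM per kb (SD, n = 3) in Col-0 and 28.7 ± 10.1 CPM per kb (SD, n = 4) in cepd. Without AT5G38910 the sum of the 9 relatives was 24.9 ± 7.6 and 28.5 ± 10.2 CPM per kb, a difference smaller than the spread between libraries.

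**Figure D2:**
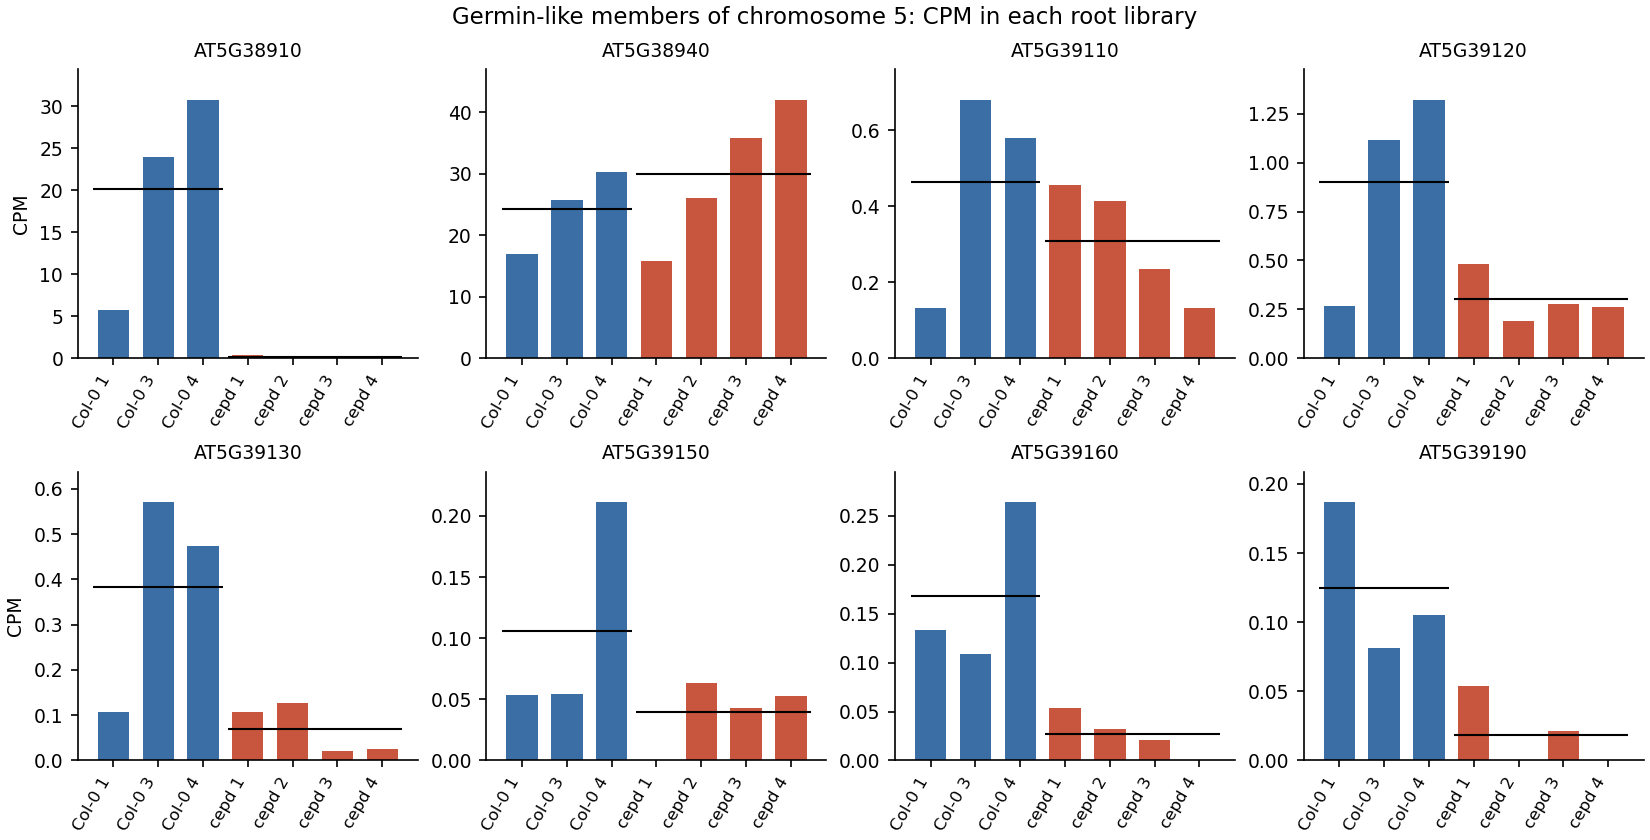
Level in CPM (linear axis from 0, a separate scale in each panel) of 8 members in each of the 7 root libraries, with Col-0 in blue, cepd in red and a black line at each genotype's mean. AT5G38910 lies at 5.73 to 30.7 CPM in Col-0 and at 0.0213 to 0.375 CPM in cepd, whereas AT5G38940 spans 16.9 to 30.3 and 15.8 to 42.0 CPM.

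**Figure D3:**
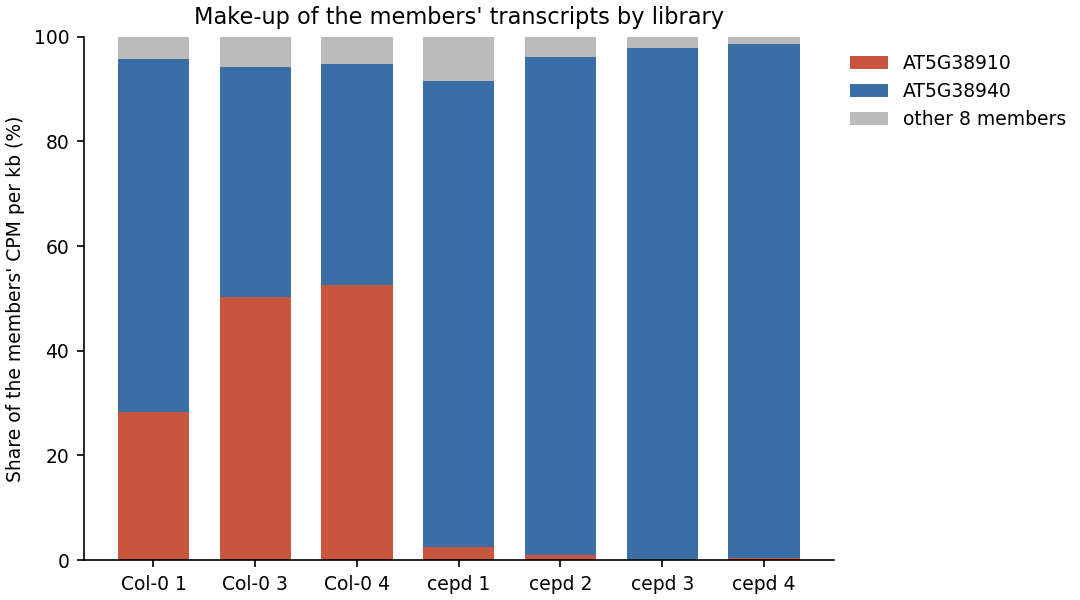
Share of each library's summed CPM per kb of the 10 members (percent, vertical axis) that came from AT5G38910 (red), AT5G38940 (blue) and the other 8 members (grey), with 1 bar per library. AT5G38910 gives 28.2% to 52.6% in the 3 Col-0 libraries and at most 2.61% in the 4 cepd libraries.

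None of the relatives was called in cepd. Of all 20600 genes tested, 2.45% were called lower (adjusted p under 0.05 and log2 fold change under -1) and 1.93% were called higher (log2 fold change over 1), and at the adjusted p alone the shares were 8.3% and 9.64%. Of the 9 relatives 3 passed the filter, and edgeR called 0 lower and 0 higher under either rule. DESeq2 called 1 relative lower, AT5G39120 (2.55% of all genes tested were called lower), while limma-voom called 0 (2.18% were). The median log2 fold change of the 3 was -0.61, beside 0.0071 over all genes tested.

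AT5G39120 had the largest of these differences. Its CPM were 0.267, 1.11 and 1.32 in Col-0 and 0.483, 0.191, 0.278 and 0.262 in cepd. The groups overlapped because Col-0 replicate 1 lay among the cepd libraries. The log2 fold change was -1.55 (SE 0.50, adjusted p = 0.0628 from edgeR), from means of 0.90 ± 0.558 CPM (SD, n = 3) and 0.303 ± 0.125 CPM (SD, n = 4). Without Col-0 replicate 1 it was -1.99 (adjusted p = 0.00162) and called, and DESeq2 gave an adjusted p of 0.0233, whereas the adjusted p reached 0.221 in the least favourable of the alternatives. AT5G39110, its neighbour, had 0.133, 0.679 and 0.580 CPM in Col-0 and 0.456, 0.414, 0.235 and 0.131 CPM in cepd. Its groups overlapped almost fully, with a log2 fold change of -0.61 (SE 0.54, adjusted p = 0.465 from edgeR).

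The 4 remaining genes of the second block were too low for the filter, and each had fewer counts in cepd. AT5G39130 had 4, 21 and 18 counts in Col-0 and 4, 4, 1 and 1 in cepd, with Col-0 replicate 1 again at the level of the cepd libraries. AT5G39160 had 5, 4 and 10 counts in Col-0 and 2, 1, 1 and 0 in cepd. AT5G39190 had 7, 3 and 4 counts in Col-0 and 2, 0, 1 and 0 in cepd. For these last 2 genes every cepd library lay below every Col-0 library, also as CPM, a pattern that 13.8% of all genes tested showed (and 15.3% showed its opposite). That share covers genes with more counts than these 2, which as near-identical copies are not separate cases of the pattern. AT5G39150 had 2, 2 and 8 counts in Col-0 and 0, 2, 2 and 2 in cepd, so its groups overlapped. When the filter was dropped, edgeR called 2.1% of 26444 genes lower, among them AT5G39130 (log2 fold change -2.48, adjusted p = 0.0280) and AT5G39160 (-2.55, adjusted p = 0.0323). AT5G39190 (-2.49, adjusted p = 0.0652) and AT5G39150 (-1.38, adjusted p = 0.307) were not called in that fit. Since AT5G39160 and AT5G39190 are near-identical, their counts were also summed, an alternative chosen after seeing the data. The pair had 12, 7 and 14 counts in Col-0 and 4, 1, 2 and 0 in cepd, with a log2 fold change of -2.60 (SE 0.61, adjusted p = 0.0141 in edgeR without the filter). AT5G39150 and AT5G39180 summed to 15 counts in Col-0 and 6 in cepd and were not called (adjusted p = 0.144).

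Col-0 replicate 1 stood apart in several of these results. It was the lowest Col-0 library for 7 of the 9 members with a Col-0 count (77.8%), against 37.7% of all genes tested. Among the 7 were AT5G38910, AT5G38940, AT5G39110, AT5G39120 and AT5G39130. AT5G38930 (0 counts there, 1 in each other Col-0 library) and AT5G39150 were also among them. AT5G39150 had 2 counts there and 2 in replicate 3, set apart only by library scaling (0.0533 and 0.0543 CPM). The share over all genes covers tested genes, whereas several of these members were too low to be tested. Col-0 replicate 1 was not the lowest for AT5G39160, and for AT5G39190 it was the highest. Without it, edgeR called AT5G39120 lower, in a fit that called 3.27% of 20817 genes lower, against 2.45% with it. AT5G39130 then passed the filter, but through its Col-0 libraries alone, so that its call in that fit was fixed by the filter in part and is not read as a result.

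Few of the genes around the members were called. AT5G38900, a thioredoxin superfamily protein gene that ends 3.04 kb before the start of AT5G38910, was chosen for its place. It had 6.69, 12.8 and 16.5 CPM in Col-0 and 3.75, 3.79, 4.76 and 4.51 CPM in cepd. The groups did not overlap, and the gene was called lower (log2 fold change -1.51, SE 0.26, adjusted p = 0.00499 from edgeR). Between the first and the last member lay 19 other genes, of which 9 were tested. Of these 0 were called lower and 1 was called higher, beside 2.45% and 1.93% of all genes tested. That gene, AT5G39080, encodes an HXXXD-type acyltransferase, an enzyme class that transfers acyl groups. It had 0.400, 0.0543 and 0.185 CPM in Col-0 and 0.858, 0.987, 0.747 and 0.786 CPM in cepd (log2 fold change 1.96, SE 0.42, adjusted p = 0.0115 from edgeR). AT5G39080 passed the filter on low counts through its cepd libraries, so its call was fixed by the filter in part and is not read as a result. The germin-like neighbours outside the list were as low as the second-block members, with 2, 7 and 10 counts of GLP6 in Col-0 and 5, 3, 3 and 2 in cepd. AT5G39180 had 1, 2 and 0 counts in Col-0 and 0 in every cepd library.

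**Figure D4:**
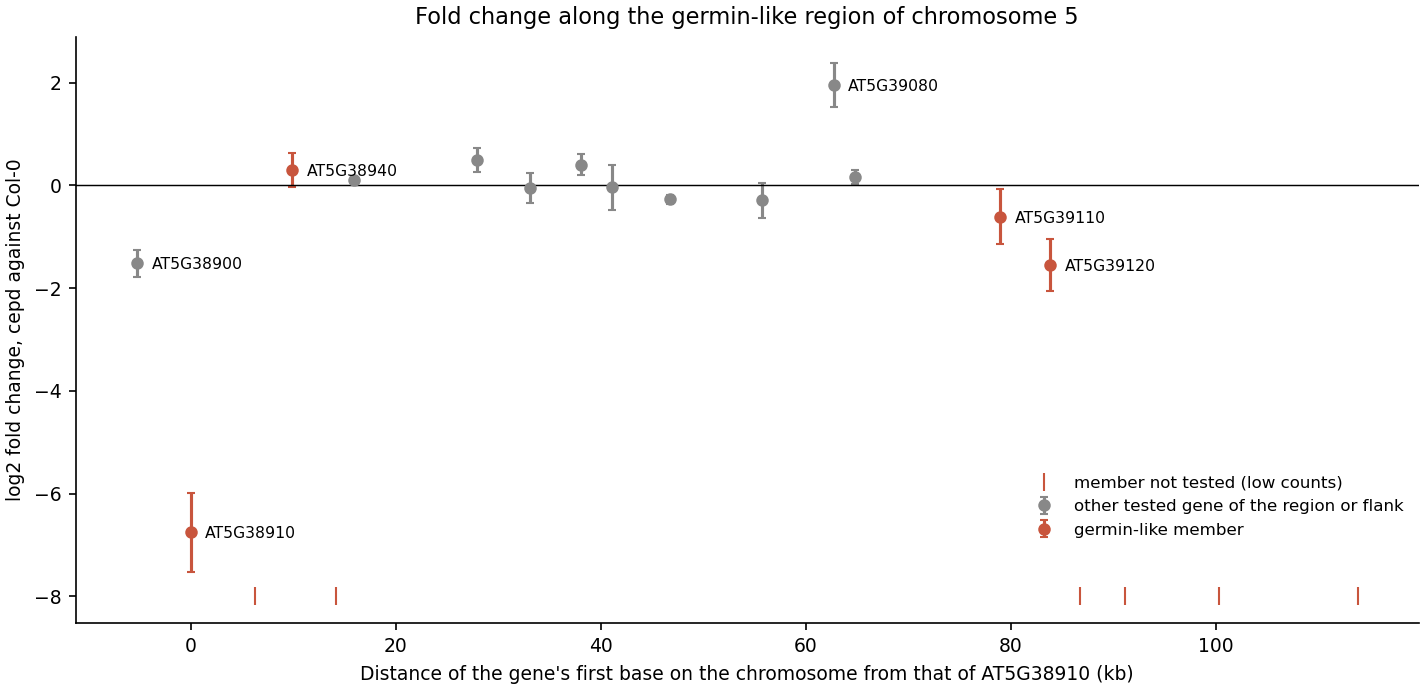
Log2 fold change of cepd against Col-0 with its standard error (vertical axis) for each tested gene of the region and the flanking AT5G38900, by distance in kb from AT5G38910, with members in red, other genes in grey and untested members as red ticks at the bottom. AT5G38910 lies at -6.75 and AT5G38900 at -1.51, while AT5G38940 lies at 0.30 and AT5G39080 at 1.96.

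The sequence before the gene starts was searched for the TGA factor motifs TGACG, TGACGTCA (which contains TGACG) and TACGTA on both strands, because the study concerns TGA factors. The 250 bases before the annotated starts of the first block's abundant genes are shown, AT5G38910 at chr5:15578499-15578748 and AT5G38940 at chr5:15588373-15588622, both on the plus strand. Capitals mark a motif.
AT5G38910: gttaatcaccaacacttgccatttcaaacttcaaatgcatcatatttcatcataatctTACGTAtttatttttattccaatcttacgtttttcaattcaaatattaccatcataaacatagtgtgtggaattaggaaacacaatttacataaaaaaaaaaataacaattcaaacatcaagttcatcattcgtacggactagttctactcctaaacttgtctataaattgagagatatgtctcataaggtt
AT5G38940: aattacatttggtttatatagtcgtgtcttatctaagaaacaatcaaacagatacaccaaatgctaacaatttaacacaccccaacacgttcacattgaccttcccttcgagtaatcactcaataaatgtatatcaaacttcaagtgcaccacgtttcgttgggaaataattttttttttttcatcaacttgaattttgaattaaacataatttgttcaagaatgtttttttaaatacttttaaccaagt
AT5G38910 had a TACGTA that began 192 bases before its start, and 2 TGACG further out, at 355 and 267 bases. TACGTA was found in the 250 bases before 4.9% of 27443 Arabidopsis genes, and in this window of 1 of the 10 members. AT5G38940 had none of the motifs there, and none in 1000 bases, nor had AT5G38930 and AT5G38960. Within 1000 bases, 4 of 10 members had TGACG (54.1% of all genes), 5 had TACGTA (16.4%) and 0 had TGACGTCA (1.2%). The members with a motif are not all separate cases. AT5G39130, AT5G39160 and AT5G39190, with 1 TACGTA each, were 97.6% to 99.9% identical in coding bases. AT5G39110, AT5G39120 and AT5G39150, which had TGACG, were 95.2% to 98.0% identical.

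In the second block a TGACG stood in the same surroundings near the starts of several genes. Its 30 bases are shown 5′ to 3′ on the genes' own strand (minus), with capitals for CGTCA, which is TGACG read on the other strand.
AT5G39100: aatatctttggaccaCGTCAaatatgacat
AT5G39110: taatatcttggaccaCGTCAaatacgacat
AT5G39120: ataacttttggaccaCGTCAaatatgacac
AT5G39150: gaataacttggaccaCGTCAaatatgacac
AT5G39180: gaataacttggaccaCGTCAaatatgacac
The motif began 75 bases before the start in AT5G39110, 74 in AT5G39120 and 61 in AT5G39100. It lay across the start in AT5G39150 and began at the first base of the gene in its copy AT5G39180. Matches of this kind are descriptions of the sequence and were not tested for binding.

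No germin-like gene elsewhere in the genome was called. Of 20 such genes 9 were tested and edgeR called 0 in either direction, beside 2.45% lower and 1.93% higher over all genes tested. Their median log2 fold change was -0.09. The most abundant was GLP5 (AT1G09560), whose protein is known from plasmodesmata, the channels between plant cells. It had 248, 280 and 280 CPM in Col-0 and 263, 294, 303 and 345 CPM in cepd (log2 fold change 0.16, SE 0.10, adjusted p = 0.282). With the replicate number as a block its adjusted p was 0.0482, and over all alternatives it ran from 0.0482 to 0.498. Per kb GLP5 stood at 219 ± 15.2 CPM in Col-0, far above any member.

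Lower values in cepd were found in a few of these genes. AT1G18980 had 4.05, 6.27 and 5.94 CPM in Col-0 and 2.52, 3.03, 3.57 and 3.75 CPM in cepd, with no overlap. It was the 1 gene of the list past the adjusted p alone (log2 fold change -0.75, SE 0.18, adjusted p = 0.0205 from edgeR), and the adjusted p rose to 0.0929 without Col-0 replicate 3, 0.0763 without Col-0 replicate 4 and 0.0587 without cepd replicate 2. Its neighbour GLP4 (AT1G18970) had 25.6, 42.4 and 42.9 CPM in Col-0 and 18.9, 20.3, 27.0 and 31.4 CPM in cepd. These groups overlapped (log2 fold change -0.60, adjusted p = 0.100 from edgeR), while the fit with the replicate block gave -0.52 and an adjusted p of 0.00057. The adjusted p of GLP4 ran from 0.00057 to 0.270 over all alternatives, with 0.0119 without Col-0 replicate 1. AT5G26700 had 0.640, 0.869 and 0.844 CPM in Col-0 and 0.215, 0.350, 0.576 and 0.550 CPM in cepd (log2 fold change -0.86, adjusted p = 0.0940 from edgeR). GLP10 (AT3G62020) and GLP7 (AT1G10460) had log2 fold changes of -0.09 and 0.11.

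**Figure D5:**
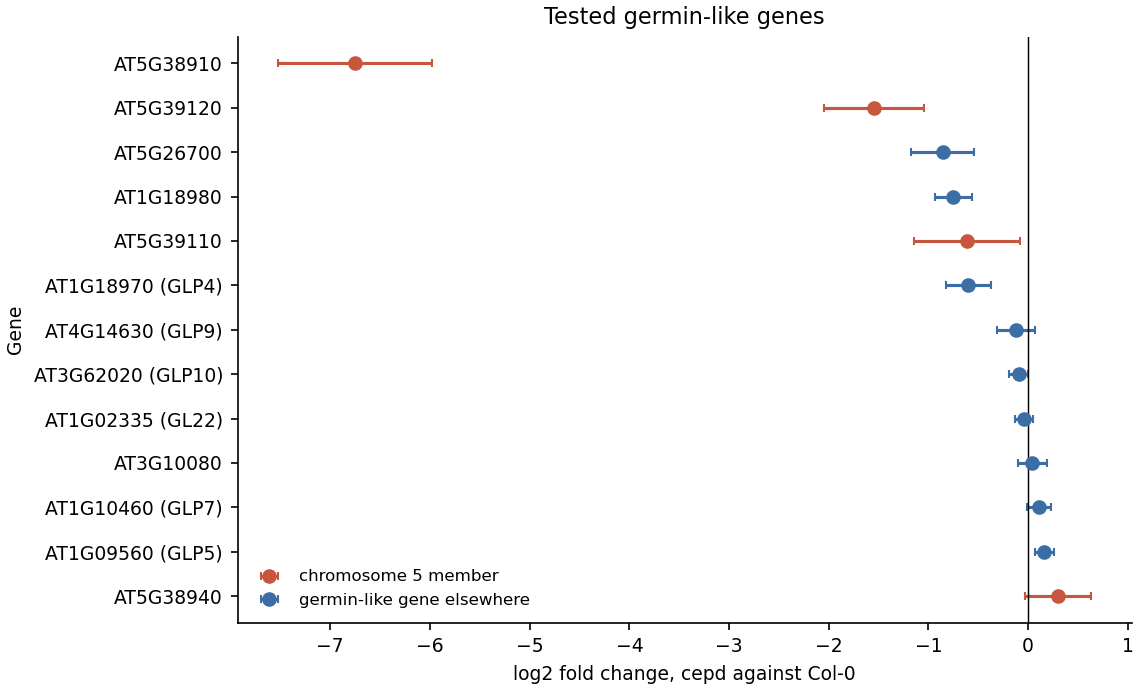
Log2 fold change of cepd against Col-0 (horizontal axis, bars are standard errors) for the 13 germin-like genes tested, with the chromosome 5 members in red and the genes elsewhere in blue. AT5G38910 lies at -6.75 and each of the others lies between -1.55 (AT5G39120) and 0.30 (AT5G38940).

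Enzymes of superoxide and hydrogen peroxide, the chemistry known for some germin-like proteins, were listed with their known genes: superoxide dismutases, their copper chaperone and the RBOH NADPH oxidases, which make superoxide outside the cell. Of 19 genes 16 were tested, with 1 called lower and 0 called higher, beside 2.45% and 1.93% of all genes tested. At the adjusted p alone 4 were lower and 1 was higher, beside 8.3% and 9.64% of all genes tested. The gene called was FSD1 (AT4G25100), an iron superoxide dismutase. It had 52.2, 59.0 and 49.2 CPM in Col-0 and 29.0, 14.6, 23.9 and 23.5 CPM in cepd. The groups did not overlap (log2 fold change -1.23, SE 0.19, adjusted p = 0.00234 from edgeR). RBOHB (AT1G09090) was higher in cepd, with 15.6 to 18.1 CPM in Col-0 and 23.3 to 26.3 CPM in cepd (log2 fold change 0.54, adjusted p = 0.00162 from edgeR). RBOHE (AT1G19230) was lower, with 33.7 to 44.0 CPM in Col-0 and 25.0 to 28.5 CPM in cepd (log2 fold change -0.48, adjusted p = 0.00955). AT4G25090, another NADPH oxidase gene, had a log2 fold change of -0.28 (adjusted p = 0.0348), which missed the threshold in 5 of the 7 fits without 1 library (highest adjusted p 0.124).

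The genes with a profile most like that of AT5G38910 were sought by the root mean square difference of their log2 CPM, centred on each gene's mean, over the 7 libraries. The nearest was CYP71A12 (difference 0.818), a cytochrome P450 of camalexin and indole carbonyl nitrile synthesis. It had 4.24, 31.9 and 61.4 CPM in Col-0 and 0.536, 0.287, 0.299 and 0.550 CPM in cepd, with Col-0 replicate 1 the lowest wild-type library as for AT5G38910. Next came the amino acid exporter gene UMAMIT35 (1.16), the RING protein gene AT4G10150 (1.20), the nitrate transporter gene NRT2.2 (1.22) and the ammonium transporter gene AMT1;5 (1.23). AT2G30670 (1.26), AT1G26380 (1.31), which encodes an FAD-binding berberine family protein, and AT5G09570 (1.34) completed the 8. Their fitted log2 fold changes lay between -6.27 (CYP71A12) and -4.56 (AT5G09570), values that the choice by profile fixes. With a prior count of 0.5 in place of 2 for the log2 CPM only 4 of these 8 genes were named again, and with Pearson's correlation 0. Of the tested members AT5G39120 was the most like AT5G38910 (difference 2.59, place 269 of 20599 genes), before AT5G39110 (2.98, place 1039) and AT5G38940 (3.43, place 17659).

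The tissue label was checked against 10 root and 10 leaf genes, none of which was at 0 in any library. The leaf genes, for Rubisco, its activase and light-harvesting proteins, summed to 165 to 224 CPM in Col-0 and 393 to 552 CPM in cepd. Of the 10, 4 were called higher, beside 1.93% of all genes tested. The root genes summed to 5015 to 6301 CPM in Col-0 and 9955 to 11636 CPM in cepd, a sum that was mostly PYK10, the 1 of the 10 called higher. The median log2 fold change of the root list was -0.12, and its root hair genes SHV2 (AT5G49270; -0.61, adjusted p = 0.00064 from edgeR) and EXPA7 (AT1G12560; -0.76, adjusted p = 0.0016 from edgeR) were lower in cepd at the adjusted p alone, with no overlap between genotypes. The part of these differences in the members' values was not tested. GER1 and GER3, germin-like genes known for their leaf transcripts but not part of the leaf list, stayed between 0.0318 and 0.293 CPM over all libraries. For 6 of the 10 listed leaf genes every cepd library lay above every Col-0 library, a pattern that 15.3% of all genes tested showed. Whether leaf material differed between the genotypes was not tested.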

How the data were processed

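The deposited files hold raw counts. The submitters' processing notes name CASAVA 1.8.2, STAR 2.5.2b-2, HTSeq 0.9.1, DESeq2 2.11.40.6 and the TAIR10 build, without their roles. Strand setting, read length and the handling of reads with several matches are not given in the sources used here. One further wild-type sample, left out by the authors because it contained leaves, is not analysed here.

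edgeR 4.0.16 (R 4.3.3) was run on these counts with filterByExpr (minimum count 10, total 15), TMM scaling by 0.986 to 1.02, a robust quasi-likelihood fit of genotype and Benjamini-Hochberg adjustment over 20600 genes. The biological coefficient of variation was 11.2%. CPM use TMM-scaled library sizes. The fit was tested on simulated data. The members and lists were chosen with earlier results of these data known. Named were all members, up to 6 germin-like genes elsewhere with the smallest adjusted p (and any of at least 100 CPM), germin-like or called genes of the region, 4 genes of the superoxide list, and the 8 profiles nearest to AT5G38910. The flanking gene AT5G38900 was added for its place, and GER1 and GER3 were added outside these rules.

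The labels and the study give numbered replicates from 4 independent experiments. Same-numbered libraries deviated together from their genotype means (r = 0.435, 0.189 and 0.274 over genes, all above 0.1), so the numbers were taken to pair them, although Col-0 replicate 3 with cepd replicate 4 (0.192), Col-0 1 with cepd 2 (0.136) and Col-0 4 with cepd 3 (0.135) were also above 0.1. Alternatives were DESeq2 1.42.0, its size factors, limma-voom (limma 3.58.1), other filters, no fold threshold, the replicate block, leaving out each library, and near-identical copies summed, the last chosen after seeing the data. No 2 libraries of the same genotype agreed within sampling noise. Sequences were read from the RefSeq TAIR10.1 genome, and coding sequences in place of proteins were aligned with Biopython 1.88 and MAFFT 7.526.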

Additional observations from a re-analysis of the deposited data

How the results depend on the processing

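The log2 fold change of AT5G38910 ran from -7.34 to -6.30 over the alternatives. Its sign was fixed by the choice of the gene and is not read as a result. The count of relatives called lower, 0 of 3, became 1 with DESeq2 (525 of 20600 genes called lower in all), 2 of 8 with no filter on low counts (556 of 26444), and 0 to 2 when single libraries were left out (399 to 681 genes in all). The 2 arose only without Col-0 replicate 1 (681 of 20817) and include AT5G39130, which passed the filter there through Col-0 alone. The stricter filter left 1 relative to test. The pairing of the libraries allows a replicate block. In that fit cepd replicate 2 has no Col-0 library of its number, so it does not inform the genotype difference. With the block 0 relatives were called, and 486 genes were lower and 382 were higher in all. Among the named genes that had not passed 0.05 in the main fit, only GLP5 (adjusted p = 0.0482 from edgeR) and GLP4 (0.00057) passed it with the block. With no fold change threshold, 1710 genes were lower and 1986 higher, and 1 germin-like gene elsewhere was lower. GLP10, not called in any fit, had log2 fold changes from -0.14 to 0.0018 when single libraries were left out, changing sign without Col-0 replicate 4. CYP71A12 and AT1G26380 had their highest adjusted p with limma-voom (0.0863 and 0.0964). Both were chosen by their profile over these libraries, so their adjusted p is not read as a result in any fit. The causes were not tested. Depth limits the 6 untested members, whose libraries held at most 21 counts each.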
